A study of Mus musculus with 10 samples.

Results

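The histone cluster genes measured here are the 71 of 37447 genes in the deposited expression table whose symbol begins with Hist1h, Hist2h, Hist3h or Hist4h. They comprise 6 linker histone genes (H1), 20 genes of H2A, 19 of H2B, 13 of H3 and 13 of H4. The members were found by symbol, but the set itself was chosen by its FPKM difference between laser-captured and sorted microglia in earlier results of these data, so every laser-capture value of these genes is given as a description, without a test. The comparison of sorted GFP with sorted wild-type microglia was not used for the choice and was tested.

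Microglia, the resident macrophages of the brain, were taken from the brainstem of mice aged 6 weeks. In the LCM_GFP group (4 libraries, 3 from females and 1 from a male), microglia expressing green fluorescent protein (GFP) were cut out of frozen tissue sections by laser capture microdissection after a short paraformaldehyde fixation, and RNA was recovered with proteinase K and acid phenol. In the FACS_GFP group (3 libraries, 2 from females and 1 from a male), GFP-expressing microglia were sorted from dissociated tissue after a Percoll gradient, and RNA was taken up in TRIzol. In the FACS_WT group (3 libraries, all from males), wild-type C57BL/6 microglia were sorted in the same way. The labels name each library a biological replicate and do not say which promoter drives GFP. All RNA was amplified with the Ovation RNA-Seq kit, and levels are in FPKM, fragments scaled to the length of the transcript and to all mapped fragments of the library. Between LCM_GFP and either sorted group, the isolation, the fixation and the RNA extraction changed together and cannot be told apart. Against FACS_WT the genotype differs as well, and the sexes are unevenly spread, with 3 of the 4 LCM_GFP libraries from females and none of the FACS_WT libraries. Between FACS_GFP and FACS_WT, genotype and sex are partly confounded. LCM_GFP libraries 1 and 3 hold embryonic globin transcripts that go against the labelled age, as described below, so whether these 2 libraries are what their labels say is uncertain. Levels of single genes are therefore given per library, and the counts over the members also for LCM_GFP libraries 2 and 4 only. Library 2 holds far smaller amounts of the same transcripts.

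The core histones H2A, H2B, H3 and H4 form the spool of the nucleosome, and linker histone H1 binds where the DNA enters and leaves it. The replication-dependent genes of these proteins lie in clusters, are transcribed mainly in S phase, and are the metazoan mRNAs known for ending in a stem-loop instead of a poly(A) tail. The stem-loop is bound by the stem-loop binding protein SLBP, and the U7 small nuclear RNA guides the cut that follows it. Some of these genes also give polyadenylated transcripts that run past the stem-loop, which are best known from cells that have stopped dividing. Microglia of the adult brain divide slowly.

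On the mm9 map of the files, 56 of the 71 genes are Hist1 genes on chromosome 13, of which 55 lie between 21807631 and 24026720 and Hist1h2al lies far apart from them (51298056 to 51298434). A further 11 lie in Hist2 on chromosome 3 (96023787 to 96082924), 3 in Hist3 on chromosome 11 (58762412 to 58770176) and 1, Hist4h4, on chromosome 6 (136752588 to 136752900). Hist3h2bb-ps is annotated as a pseudogene by its name. Hist2h3c1 stands in 2 rows, with different Ensembl identifiers. Hist1h2aa is listed at 0 in all 10 libraries; 23 genes had a value above 0 in every library and 47 in some.

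The stem-loop ties these genes together by sequence, and it was read from the GENCODE M21 annotation of the GRCm38 genome, a later build than that of the files. The pattern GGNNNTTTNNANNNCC, with its first 6 bases complementary to its last 6, was searched on the transcript strand within 100 bases after the stop codon. It was found in 37 of the 44 members that have such a window, at a median of 31 bases after the stop codon (21 to 58), against 10 of 21074 other coding genes (0.0475%). Members were matched by Ensembl identifier, which found 59 of the 71 in GENCODE M21. Those not found, Hist1h3d and Hist1h2bm among them, may stand among the other genes under another identifier, which was not checked. By class it was present in 4 of 5 H1, 9 of 9 H2A, 8 of 12 H2B, 6 of 7 H3 and 10 of 11 H4 genes, and 21 members carry the same 16 bases. The sites of 8 genes whose levels are described below are shown 5′ to 3′ with the stem-loop in capitals and 5 bases on each side.
Hist1h1c (chr13:23739507-23739532, plus strand): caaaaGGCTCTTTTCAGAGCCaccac
Hist1h1d (chr13:23555782-23555807, plus strand): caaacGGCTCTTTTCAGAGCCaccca
Hist1h2ad (chr13:23574890-23574915, plus strand): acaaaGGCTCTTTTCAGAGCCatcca
Hist1h2bf (chr13:23573760-23573785, minus strand): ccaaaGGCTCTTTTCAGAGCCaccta
Hist1h2bg (chr13:23571838-23571863, plus strand): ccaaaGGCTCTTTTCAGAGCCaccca
Hist1h3e (chr13:23561898-23561923, minus strand): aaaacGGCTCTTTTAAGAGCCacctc
Hist1h4d (chr13:23581945-23581970, plus strand): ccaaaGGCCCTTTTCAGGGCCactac
Hist2h4 (chr3:96262934-96262959, minus strand): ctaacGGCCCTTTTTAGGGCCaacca
The H1, H2A and H2B sites shown share all 16 bases although the levels of their genes differ widely below, while both H4 genes carry a GC-richer stem.

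Promoter sequences from RefSeq (GRCm38.p6, 250 bases before to 50 after the start) were matched for 50 members and searched, each gene by any of its promoters, on both strands for 3 short motifs known from histone promoters. CCAAT was present in 84% of them, against 41.1% of all 27025 genes with a promoter, and in every matched H1, H2A, H2B and H3 gene but in 27.3% of the H4 genes. TATAAA was present in 62% against 15.7%, and the octamer ATTTGCAT in 24% against 1.97%. The octamer stood in 43.8% of H2A and 45.5% of H2B genes and in no matched H1, H3 or H4 gene. A match describes the letters only. The promoters of Hist1h1d and Hist1h2bf are shown because LCM_GFP library 1 was far below the sorted libraries for Hist1h1d and far above them for Hist1h2bf. Capitals mark CCAAT and TATAAA on either strand.
Hist1h1d promoter (chr13:23554782-23555081, plus strand): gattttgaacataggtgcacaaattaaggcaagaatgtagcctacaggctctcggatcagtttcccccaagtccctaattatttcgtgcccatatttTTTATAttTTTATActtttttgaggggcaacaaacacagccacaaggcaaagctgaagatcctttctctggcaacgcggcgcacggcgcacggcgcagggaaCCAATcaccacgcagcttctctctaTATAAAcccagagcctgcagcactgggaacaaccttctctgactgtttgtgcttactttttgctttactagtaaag
Hist1h2bf promoter (chr13:23574158-23574457, minus strand): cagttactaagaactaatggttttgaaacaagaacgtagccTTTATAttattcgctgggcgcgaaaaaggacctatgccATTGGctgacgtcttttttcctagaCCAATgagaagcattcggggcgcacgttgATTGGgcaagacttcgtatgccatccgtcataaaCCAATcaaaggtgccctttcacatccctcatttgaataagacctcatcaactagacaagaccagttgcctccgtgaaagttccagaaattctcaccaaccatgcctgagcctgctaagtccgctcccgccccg
The Hist1h2bf window overlaps the promoter window of its H2A neighbour Hist1h2ad, which reads the other strand.

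Summed over the 71 genes, laser-captured microglia spanned a far wider range than either sorted group. The sum was 3572, 386, 819.5 and 151 FPKM in LCM_GFP libraries 1 to 4, against 1890.1, 1579 and 2325 FPKM in FACS_GFP and 1694, 1777 and 1879.6 FPKM in FACS_WT. LCM_GFP library 1 was thus above every sorted library and the other 3 were below every sorted library. As a share of all FPKM of the library, the sum was 0.564%, 0.0717%, 0.205% and 0.0384% in LCM_GFP, and between 0.353% and 0.438% in the FACS_GFP and FACS_WT libraries. The files hold no fragment counts and the low values did not fall on whole multiples of a common step, so the depth behind each value is unknown and no counting interval is given. In such bulk RNA, fewer cells of a type and less RNA per cell cannot be told apart.

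**Figure D1:**
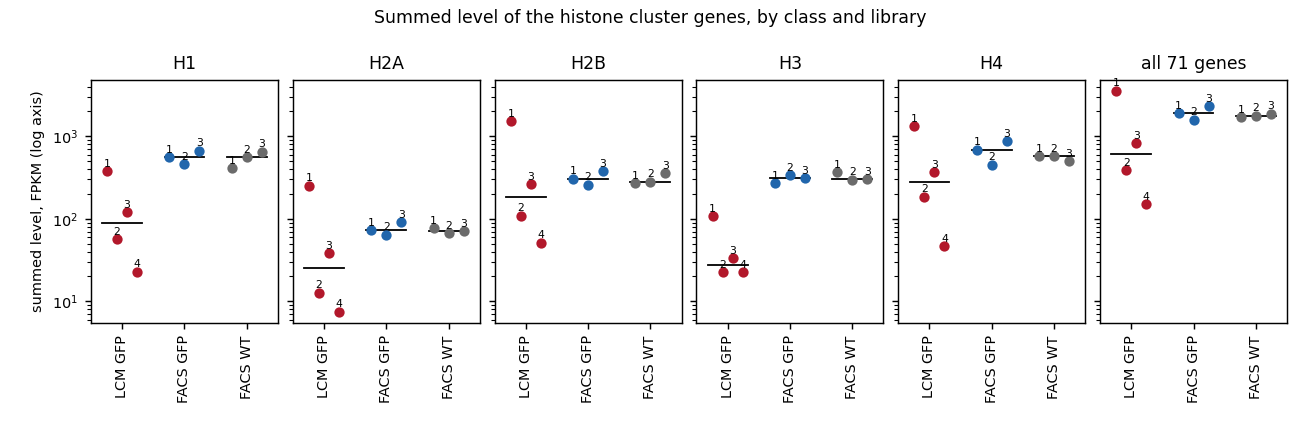
Summed FPKM of the histone cluster genes per library (points, numbered by replicate; log axis), for each class and for all 71 genes; the bar is the group median. LCM_GFP library 1 (3572 FPKM over all genes) stands above the sorted libraries and library 4 (151 FPKM) far below them.

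The classes did not contribute alike. H1 made up 10.61% to 15.1% of the summed histone FPKM in LCM_GFP, against 28.6% to 29.6% in FACS_GFP and 24.4% to 34.6% in FACS_WT, with no overlap between the laser-capture and sorted libraries. H2B made up 28.4% to 42.3% in LCM_GFP, against 16.2% to 16.4% in FACS_GFP and 15.8% to 19.1% in FACS_WT, again with no overlap but in the other direction. H3 held 2.99% to 15.0% in LCM_GFP, 13.4% to 21.4% in FACS_GFP and 15.9% to 21.6% in FACS_WT, and the ranges of LCM_GFP and FACS_GFP overlapped. H4 held 30.9% to 47.8% in LCM_GFP, 28.8% to 37.8% in FACS_GFP and 26.5% to 33.6% in FACS_WT. Few genes carried the sums: the 5 highest members of a library held 72.2% to 81.5% in LCM_GFP and 61.9% to 66.7% in the FACS_GFP and FACS_WT libraries.

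**Figure D2:**
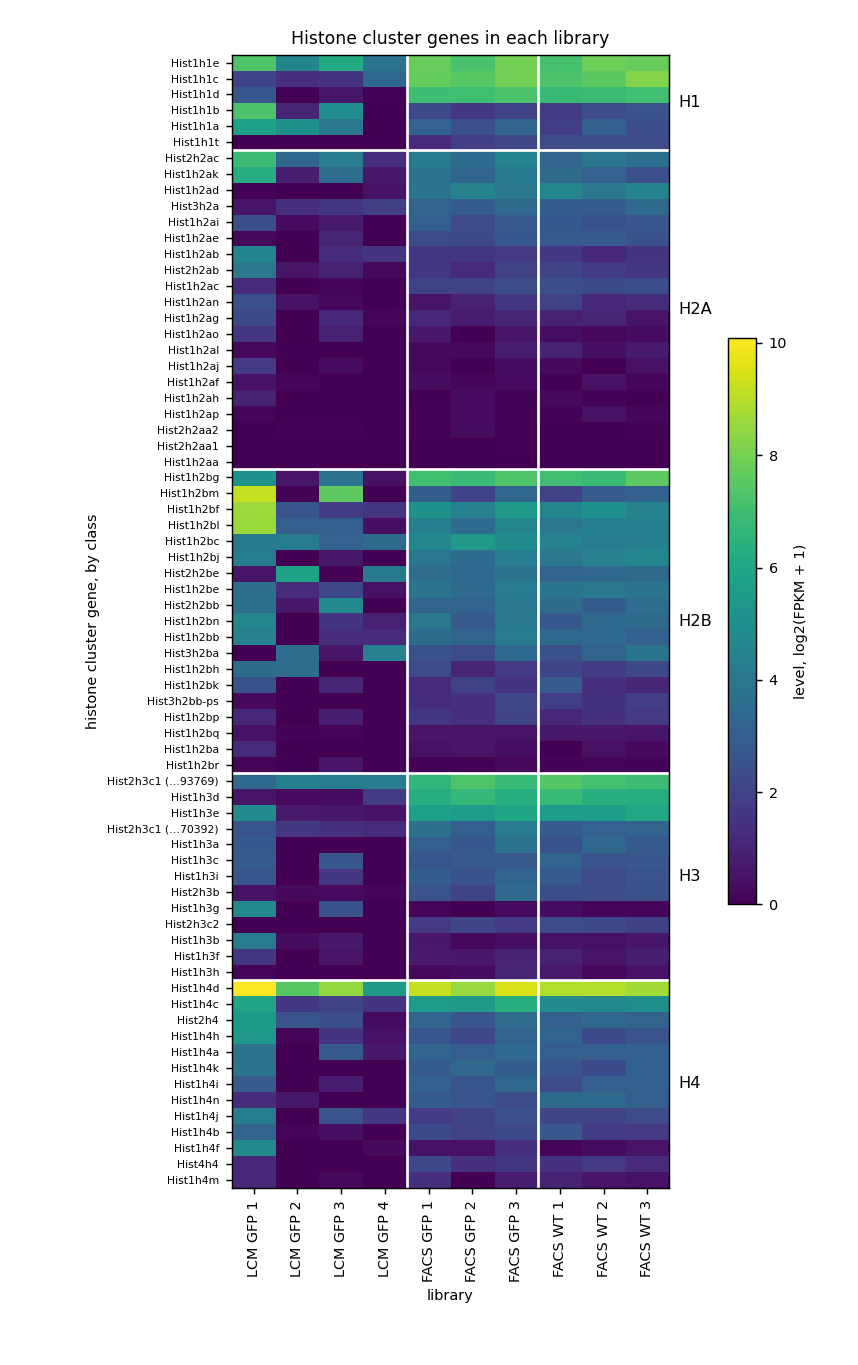
Level of each of the 71 genes, log2(FPKM + 1), by class (rows, ordered within a class by mean level) and library (columns, LCM_GFP, FACS_GFP, FACS_WT). The sorted libraries resemble each other row by row, whereas the 4 LCM_GFP columns differ, with library 1 bright in many H2B and H4 rows and libraries 2 and 4 dark in most.

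Read gene by gene, 21 of the 70 members with a value were lower in all 4 LCM_GFP libraries than in all 3 FACS_GFP libraries, and 0 were higher. Over all 23201 genes with a value, 23.4% were lower and 13.1% higher in this way. Against FACS_WT, 23 members were lower in all LCM_GFP libraries and 0 higher, beside 22.9% lower and 12.9% higher over all genes. The median log2(FPKM + 1) difference of the members was −1.18 in LCM_GFP minus FACS_GFP and −0.90 in LCM_GFP minus FACS_WT. Over all genes past the level filter the medians of these differences were −0.60 and −0.59, and over all genes with a value they were −0.03 and −0.04. Scaling each library by median ratios moved the median of the filtered genes to −0.13 and −0.12. That of all genes with a value moved to 0.016 and 0.013. The median of the members, taken without the filter throughout, moved to −0.68 and −0.59. Because both comparisons use the same 4 LCM_GFP libraries, they are not independent.

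Most of the overlap between the groups came from LCM_GFP library 1. Set against the 3 FACS_GFP libraries, 32 of the 71 members were above all of them in LCM_GFP library 1 and 25 below. In library 2 the counts were 4 above and 58 below, in library 3 they were 10 above and 53 below, and in library 4 they were 2 above and 63 below. Over all genes with a value the 4 libraries were alike, with 34.6% to 37.8% above and 45.6% to 48.0% below. Without LCM_GFP replicate 1, 49 members were lower than FACS_GFP with no overlap (28.8% of all genes) and 46 lower than FACS_WT (28.3% of all genes). With LCM_GFP libraries 2 and 4 only, 58 were lower than FACS_GFP (35.4% of all genes) and 2 higher (22.8%), and 57 were lower than FACS_WT (34.9%) and 1 higher (22.6%).

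**Figure D3:**
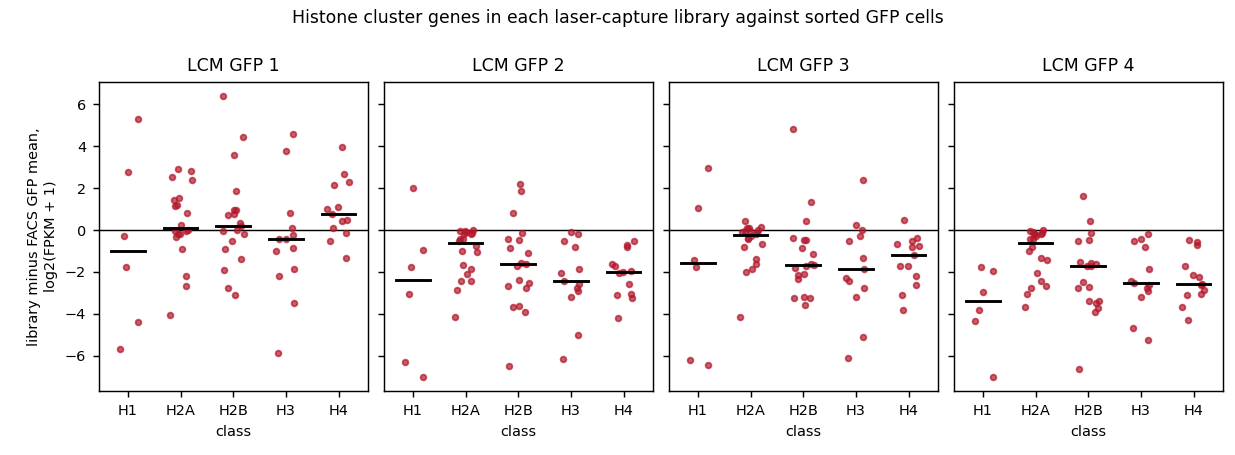
Difference of each of the 71 genes between 1 LCM_GFP library and the mean of the 3 FACS_GFP libraries, on the log2(FPKM + 1) scale (points, by class; thick bar, class median; line at 0, no difference). Class medians lie on both sides of 0 in library 1 and below 0 in libraries 2, 3 and 4.

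Among the linker histones, Hist1h1c and Hist1h1d were low in every laser-capture library, and Hist1h1a and Hist1h1b were high in some of them. Hist1h1c, a linker histone also expressed outside S phase, had 3.12, 1.66, 1.90 and 9.52 FPKM in LCM_GFP, against 210.4, 179 and 249 FPKM in FACS_GFP and 152, 186 and 294 FPKM in FACS_WT. Every LCM_GFP library was at least 16.01 times below the lowest sorted wild-type library and 18.8 times below the lowest sorted GFP library. Hist1h1d, another somatic subtype, had 5.42, 0.0478, 0.550 and 0.0308 FPKM in LCM_GFP, against 125, 127 and 150.4 FPKM in FACS_GFP and 109.8, 119.9 and 129 FPKM in FACS_WT. It gave the lowest difference of all members, −6.22 in LCM_GFP minus FACS_GFP on the log2(FPKM + 1) scale, and library 1 was low as well. Hist1h1e, also a somatic subtype, overlapped, with 163, 23.2, 72.0 and 13.3 FPKM in LCM_GFP, against 211, 147 and 249.95 FPKM in FACS_GFP and 141, 231 and 216 FPKM in FACS_WT. 

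Hist1h1b, a subtype known to be tied to dividing cells, had 155, 1.05, 29.6 and 0 FPKM in LCM_GFP, against 3.74, 2.14 and 3.09 FPKM in FACS_GFP and 2.33, 4.27 and 5.02 FPKM in FACS_WT. Libraries 1 and 3 were above every sorted library and libraries 2 and 4 below. Hist1h1a had 52.8, 30.5, 15.3 and 0 FPKM in LCM_GFP, against 7.91, 4.49 and 8.86 FPKM in FACS_GFP and 2.66, 7.66 and 4.33 FPKM in FACS_WT, so 3 of 4 laser-capture libraries lay above the sorted ones. Hist1h1t, the testis linker histone, was listed at 0 in all 4 LCM_GFP libraries, against 1.30, 2.62 and 3.495 FPKM in FACS_GFP and 3.90, 4.24 and 3.95 FPKM in FACS_WT.

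H2A genes were mostly low in all groups, and their class median difference, −0.13 in LCM_GFP minus FACS_GFP, was the nearest to 0 of the 5 classes. Hist2h2ac, the highest H2A gene of the laser-capture libraries on average, had 119, 9.001, 17.9 and 1.61 FPKM in LCM_GFP, against 16.7, 10.51 and 22.5 FPKM in FACS_GFP and 8.68, 14.7 and 11.8 FPKM in FACS_WT. Library 1 stood alone above the sorted range. Hist1h2ak had 75.4, 0.782, 11.3 and 0.568 FPKM in LCM_GFP, against 12.6, 8.396 and 16.1 FPKM in FACS_GFP and 10.2, 8.04 and 4.56 FPKM in FACS_WT, with the same high library. Hist1h2an, at 4.54, 0.426, 0.166 and 0 FPKM in LCM_GFP, against 0.438, 0.877 and 2.03 FPKM in FACS_GFP and 2.89, 1.27 and 1.501 FPKM in FACS_WT, was low throughout.

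Hist1h2ad and Hist3h2a were instead low in all laser-capture libraries, library 1 included. Hist1h2ad had 0.0829, 0, 0 and 0.398 FPKM in LCM_GFP, against 13.9, 22.1 and 15.6 FPKM in FACS_GFP and 23.7, 15.0 and 22.0 FPKM in FACS_WT, where it was the highest H2A gene. Hist3h2a, from the small Hist3 cluster, had 0.468, 1.54, 2.02 and 2.72 FPKM in LCM_GFP, against 8.17, 6.70 and 10.2 FPKM in FACS_GFP and 6.72, 6.62 and 10.1 FPKM in FACS_WT. Of the 19 H2A genes with a value, 4 were lower in all LCM_GFP than in all FACS_GFP libraries, a share near the 23.4% of all genes.

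Several H2B genes differed widely between laser-capture libraries. Hist1h2bm had 585, 0.0703, 193 and 0 FPKM in LCM_GFP, against 6.82, 3.07 and 9.34 FPKM in FACS_GFP and 3.15, 6.49 and 7.72 FPKM in FACS_WT; its locus overlaps that of Hist1h2aj in the files, so their reads may have been split. Libraries 1 and 3 stood above all sorted libraries and libraries 2 and 4 below them, as for Hist1h1b. Hist1h2bf had 388, 5.13, 2.48 and 2.04 FPKM in LCM_GFP, against 35.1, 20.2 and 42.5 FPKM in FACS_GFP and 23.4, 33.9 and 21.03 FPKM in FACS_WT. Hist1h2bl had 382, 7.23, 7.14 and 0.338 FPKM in LCM_GFP, against 19.6, 10.48 and 23.0 FPKM in FACS_GFP and 15.0, 19.4 and 18.9 FPKM in FACS_WT. In both, library 1 was above the sorted range and the other 3 were below it.

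Hist1h2bg, the highest H2B gene of sorted microglia, was low in all laser-capture libraries. Its levels were 35.5, 0.522, 13.3 and 0.379 FPKM in LCM_GFP, against 132, 118 and 158 FPKM in FACS_GFP and 125, 116 and 191 FPKM in FACS_WT. Hist1h2bc had 15.9, 16.3, 8.00 and 10.2 FPKM in LCM_GFP, against 24.4, 42.0 and 28.4 FPKM in FACS_GFP and 20.6, 17.3 and 19.7 FPKM in FACS_WT. The laser-capture range of Hist1h2bc ended just under the sorted ones. The class median difference was −1.18 in LCM_GFP minus FACS_GFP, and 5 of 19 H2B genes were lower with no overlap, again near the 23.4% of all genes.

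Among the H3 genes, 7 of 13 were lower in all LCM_GFP than in all FACS_GFP libraries, beside 23.4% of all genes, and the class median difference was −1.85. Hist1h3d had 0.484, 0.241, 0.275 and 2.39 FPKM in LCM_GFP, against 78.0, 104 and 80.9 FPKM in FACS_GFP and 113, 81.1 and 75.9 FPKM in FACS_WT, with each LCM_GFP library at least 31.7 times below each sorted one. Hist1h3e had 28.3, 0.674, 0.556 and 0.416 FPKM in LCM_GFP, against 51.4, 45.5 and 61.7 FPKM in FACS_GFP and 45.7, 48.3 and 64.5 FPKM in FACS_WT. Library 1 was the nearest to the sorted range. The Hist2h3c1 row ENSMUSG00000093769, the highest H3 entry, had 9.85, 19.3, 16.8 and 18.4 FPKM in LCM_GFP, against 98.6, 157 and 110.4 FPKM in FACS_GFP and 170.1, 133.7 and 124 FPKM in FACS_WT. The other row, ENSMUSG00000070392, had 5.16, 2.02, 1.59 and 1.31 FPKM in LCM_GFP, against 12.4, 7.41 and 16.4 FPKM in FACS_GFP and 6.36, 8.09 and 8.72 FPKM in FACS_WT. Both rows were lower in every LCM_GFP library, but their loci overlap, so how reads were shared between them is uncertain. Hist1h3g went the other way in libraries 1 and 3, with 25.7, 0, 4.84 and 0 FPKM in LCM_GFP, against 0.146, 0 and 0.236 FPKM in FACS_GFP and 0.276, 0.142 and 0.114 FPKM in FACS_WT.

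Hist1h4d was the highest member in all 10 libraries and held 22.1% to 45.8% of the histone sum in each. It had 1090.2, 177, 346 and 41.5 FPKM in LCM_GFP, against 583, 368 and 735 FPKM in FACS_GFP and 486, 500.1 and 415 FPKM in FACS_WT. The groups overlapped, with library 1 above, and libraries 2, 3 and 4 below, the sorted range. Hist1h4c had 57.9, 2.01, 2.87 and 1.85 FPKM in LCM_GFP, against 46.3, 43.1 and 80.5 FPKM in FACS_GFP and 28.3, 27.3 and 31.3 FPKM in FACS_WT. Hist1h4h had 40.5, 0.0994, 1.86 and 0.388 FPKM in LCM_GFP, against 5.44, 3.53 and 8.43 FPKM in FACS_GFP and 8.59, 3.66 and 5.14 FPKM in FACS_WT. Again only library 1 of these LCM_GFP values exceeded the sorted wild-type range. Hist2h4 was also highest in library 1, with 44.5, 5.28, 4.34 and 0.259 FPKM in LCM_GFP, against 8.73, 5.37 and 11.3 FPKM in FACS_GFP and 7.55, 9.06 and 8.32 FPKM in FACS_WT. Hist1h4n was lower in every LCM_GFP library than in every sorted library, with 1.43, 0.581, 0 and 0 FPKM in LCM_GFP, against 6.62, 5.18 and 4.07 FPKM in FACS_GFP and 10.2, 9.92 and 7.22 FPKM in FACS_WT. The H4 class median difference was −1.23, and 2 of 13 H4 genes were lower in all LCM_GFP than in all FACS_GFP libraries, beside 23.4% of all genes.

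**Figure D4:**
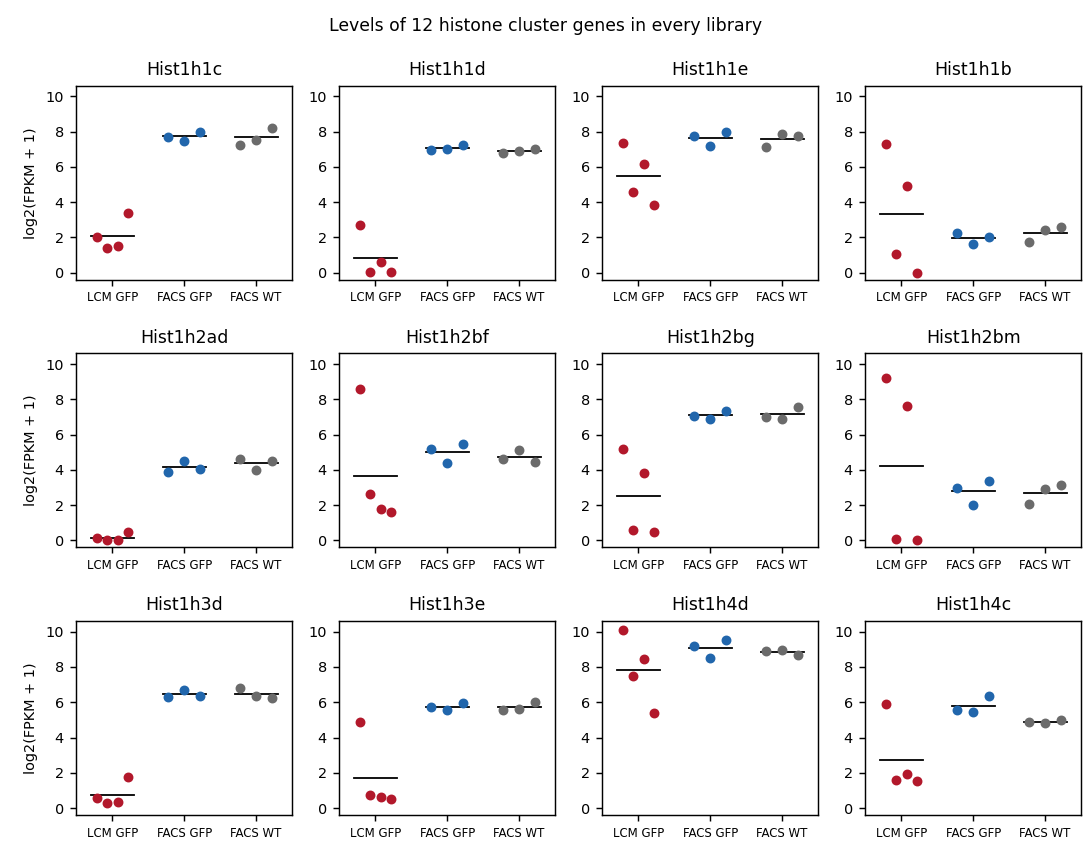
Levels of 12 named histone cluster genes, log2(FPKM + 1), in every library (points in replicate order from left to right; bar, group mean). Hist1h1c, Hist1h1d, Hist1h2ad and Hist1h3d are low in all 4 LCM_GFP libraries, whereas Hist1h1b and Hist1h2bm are high in LCM_GFP libraries 1 and 3 and low in 2 and 4.

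Neighbouring histone genes often differed in level. On the mm9 map, 13 H2A genes lie next to an H2B gene with a gap under 500 bases, at distances of 166 to 304 bases. Hist1h2aj and Hist1h2bm, whose loci overlap, are not counted. Such pairs are known to share a promoter when read on opposite strands, which was not checked for every pair. The pairs include Hist1h2aa, listed at 0 in every library, and Hist3h2bb-ps, a pseudogene by its name. In 3 of the 13 pairs both members were lower in all LCM_GFP than in all FACS_GFP libraries, in 3 pairs only 1 member was, and in 7 neither; over all single genes the share was 23.4%. Hist1h2ad and Hist1h2bf, 183 bases apart and sharing most of the promoter sequence shown, differed in library 1, where Hist1h2ad had 0.0829 and Hist1h2bf 388 FPKM. Hist1h2ae and Hist1h2bg were both low in all LCM_GFP libraries, with Hist1h2ae at 0.177, 0, 1.09 and 0 FPKM in LCM_GFP, against 4.13, 3.66 and 5.85 FPKM in FACS_GFP and 6.10, 6.42 and 4.68 FPKM in FACS_WT; Hist1h2ae was named for its place beside Hist1h2bg, after its values were seen.

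The length of the annotated transcript past the stem-loop was set beside the levels, as a split made after the values were seen. In GENCODE M21, 18 members with a stem-loop have a transcript model that goes on at least 100 bases past it (151 to 4884), Hist1h1c, Hist1h1d, Hist1h2bg and Hist1h3e among them, and 19 end sooner (3 to 74 bases), among them Hist1h2ad and Hist1h2bf. The levels rest on the older gene models of the files, which can differ. Hist1h4d spans 394 bases there, against a longest transcript of 1138 bases in GENCODE M21. Hist1h1c spans 1561 bases, against 1560. Of the 18 with a long model, 10 were lower in all LCM_GFP than in all FACS_GFP libraries, with a median log2(FPKM + 1) difference of −2.02. Of the 19 with a short model, 3 were lower, with a median difference of −0.83. Over all genes 23.4% were lower in this way, and since the contrast chose the set, nothing is read from either count. The long-model genes were also the higher ones in sorted cells, with a median level of 8.26 to 14.1 FPKM in FACS_GFP and 10.8 to 13.7 FPKM in FACS_WT, while the short-model genes had 2.88 to 3.87 FPKM in FACS_GFP and 2.16 to 5.76 FPKM in FACS_WT. Level and model length move together here, and their parts in the difference were not tested.

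Near-identical copies limit what a single histone row can mean. In GENCODE M21, a median of 49.7% of the 50-base stretches of a member also occur in another gene, over 59 members, and 29 share 50% or more. The median share was 1.125% in H1, 67.3% in H2A, 40.1% in H2B, 68.5% in H3 and 39.9% in H4. It was 8.54% for Hist1h1c, 2.25% for Hist1h1d and 10.2% for Hist1h4d, but 67.1% for Hist1h2ad, 73.4% for Hist1h3e and 100% for the Hist2h3c1 row ENSMUSG00000093769. How reads that match several copies were counted is not given in the sources used here, so levels of single rows are uncertain between copies. Class sums may not be free of this either, because the copies need not be members. Of the 73.4% for Hist1h3e, 23.3% was shared with another member found by its Ensembl identifier. Only 8 of the 13 H3 members were found in this way. A copy counted outside the set may thus be a member under another identifier, which was not checked. Among the H1 genes, Hist1h1e shared 32.0%, all of it with other members.

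Between sorted GFP and sorted wild-type microglia, no histone cluster gene passed the test. Of the 53 members that passed the level filter in this comparison, 0 were called by limma at a Benjamini-Hochberg adjusted p under 0.05, beside 0.0339% of 11814 genes called higher and 0.0762% called lower in FACS_GFP. At an unadjusted p under 0.05 there were 4 members among 1552 genes. Hist1h4c was higher in every FACS_GFP library than in every FACS_WT library, by 0.89 ± 0.22 (SE) on the log2(FPKM + 1) scale, with an adjusted p of 0.252 in limma. Hist1h2bc differed by 0.66 ± 0.19 (adjusted p = 0.269 in limma), also with FACS_GFP higher in every library. Hist1h4n differed by −0.69 ± 0.19 (adjusted p = 0.264 in limma) and Hist1h1t by −0.59 ± 0.23 (adjusted p = 0.351 in limma), with FACS_GFP lower in every library.

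None of these 4 passed the adjusted threshold. The 53 differences ran from −0.69 to 0.89, and the half-width of their 95% intervals had a median of 0.52 (0.27 to 1.07), so the data leave room for differences of about that size. Counted without a test, 2 members were higher and 3 lower with no overlap, beside 8.07% and 7.37% of all genes. In the authors' deposited table, whose log2 values are FACS_WT over FACS_GFP, 0 of 68 rows with members had a q-value under 0.05; the lowest was 0.0688, for Hist1h4c at −1.04. The sum of the class H4 was 684, 454 and 878 FPKM in FACS_GFP, against 569, 577 and 499 FPKM in FACS_WT, which overlap.

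Other genes of histone supply give the setting. Of 14 genes listed as replication-independent histone variants, 10 were tested in LCM_GFP minus FACS_GFP. By limma 1 was higher and 2 were lower, beside 12.5% of 13403 genes higher and 19.6% lower. The list was set by name, and whether each gene, H2afx included, is made outside S phase was not tested. H3f3b, which encodes the variant H3.3 and is polyadenylated, had 36.8, 4.38, 13.9 and 8.05 FPKM in LCM_GFP, against 224, 176 and 297 FPKM in FACS_GFP and 191, 359 and 377 FPKM in FACS_WT, with no overlap. Its difference was −4.15 ± 0.65 (SE, log2, adjusted p = 0.00255 in limma) in LCM_GFP minus FACS_GFP and −4.53 ± 0.66 (adjusted p = 0.00178 in limma) in LCM_GFP minus FACS_WT. H2afx, whose protein marks DNA breaks once phosphorylated, had 201, 56.5, 45.5 and 20.3 FPKM in LCM_GFP, against 8.76, 7.31 and 11.98 FPKM in FACS_GFP and 9.89, 9.20 and 9.23 FPKM in FACS_WT, and rose by 2.52 ± 0.72 (adjusted p = 0.0307 in limma) against FACS_GFP and by 2.48 ± 0.70 (adjusted p = 0.0304 in limma) against FACS_WT. H2afj had 0.491, 0.917, 0.625 and 0.537 FPKM in LCM_GFP, against 2.63, 2.41 and 3.10 FPKM in FACS_GFP and 2.61, 2.45 and 3.59 FPKM in FACS_WT. It fell by 1.18 ± 0.27 (adjusted p = 0.0132 in limma) against FACS_GFP and by 1.24 ± 0.29 (adjusted p = 0.0151 in limma) against FACS_WT. H2afj passed the level filter only through the sorted libraries, so the filter set its direction and nothing is read from its call. Leaving out any 1 sorted library left H3f3b as the only called gene over this list and the 3 below it, with H2afj no longer past the level filter. Calls over all genes fell as well, from 4305 to between 1042 and 1087 against FACS_GFP. Against FACS_WT they fell from 4207 to between 1089 and 1160.

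The other variants named by their level were not called against either sorted group. H1f0, the linker histone of resting cells, had 266, 118, 46.8 and 65.2 FPKM in LCM_GFP, against 124, 82.3 and 127 FPKM in FACS_GFP and 89.5, 138 and 172 FPKM in FACS_WT. H2afz, encoding H2A.Z, had 266, 76.7, 78.3 and 93.4 FPKM in LCM_GFP, against 82.7, 67.6 and 91.9 FPKM in FACS_GFP and 49.6, 60.2 and 52.6 FPKM in FACS_WT. H2afy, encoding macroH2A, had 52.7, 15.0, 105.8 and 62.6 FPKM in LCM_GFP, against 58.2, 48.3 and 47.0 FPKM in FACS_GFP and 46.2, 48.9 and 51.3 FPKM in FACS_WT. H1f0 and H2afy overlapped the sorted groups, and H2afz lay above FACS_WT alone, with an adjusted p of 0.137 in limma.

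Of 19 factors that transcribe, process or degrade histone mRNA, 17 were tested and 2 fell in LCM_GFP minus FACS_GFP; 3 fell in LCM_GFP minus FACS_WT, beside 12.3% of 13415 genes higher and 19.1% lower. Xrn2, a 5′ to 3′ exonuclease, fell by 1.75 ± 0.43 (adjusted p = 0.0177 in limma) against FACS_GFP and by 1.61 ± 0.44 (adjusted p = 0.0253 in limma) against FACS_WT. Eri1, the exonuclease that trims the histone stem-loop end, fell by 1.63 ± 0.42 (adjusted p = 0.0202 in limma) and by 1.37 ± 0.42 (adjusted p = 0.0382 in limma). Snrpb, a spliceosomal Sm protein, fell by 2.36 ± 0.63 against FACS_WT (adjusted p = 0.0242 in limma). Slbp itself had 30.5, 15.9, 4.16 and 5.90 FPKM in LCM_GFP, against 19.8, 23.2 and 28.3 FPKM in FACS_GFP and 16.3, 18.4 and 18.9 FPKM in FACS_WT, which overlap; it was named for binding the stem-loop, after its values were seen. Snrpe, Sympk and Cpsf3 were not called, and Snrpe stood at 9348 FPKM in FACS_GFP library 3, against 28.9 and 23.2 FPKM in the other FACS_GFP libraries.

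At a limma adjusted p under 0.05, 0 of 23 tested S phase and division genes and 0 of 11 histone chaperones were called in LCM_GFP minus FACS_GFP, and 0 of either list had an unadjusted p under 0.05. In LCM_GFP minus FACS_WT, 0 of 21 division genes (2 at an unadjusted p under 0.05) and 0 of 11 chaperones (0 unadjusted) were called. The chaperone list of 15 also held Napa, a protein of vesicle fusion, which is left out of these counts. The median log2 difference in LCM_GFP minus FACS_GFP was 0.36 over the tested division genes, 0.19 over the variants and −0.83 over the histone mRNA factors, beside −0.60 over all genes tested. The division genes were nevertheless uneven between laser-capture libraries. Their summed level was 1359.6, 69.1, 328 and 65.7 FPKM in LCM_GFP libraries 1 to 4, against 163, 134.1 and 154 FPKM in FACS_GFP and 139.9, 138 and 153 FPKM in FACS_WT. Mki67, a marker of cycling cells, had 202, 12.4, 46.6 and 0.0785 FPKM in LCM_GFP, against 4.45, 2.06 and 2.99 FPKM in FACS_GFP and 1.38, 0.835 and 0.939 FPKM in FACS_WT. Top2a, the topoisomerase of dividing cells, had 251, 2.23, 43.9 and 2.22 FPKM in LCM_GFP, against 4.36, 1.79 and 3.20 FPKM in FACS_GFP and 0.872, 0.998 and 1.36 FPKM in FACS_WT. Libraries 1 and 3 were thus high in division genes as they were in Hist1h1b and Hist1h2bm. Library 2 was also above every sorted library in Mki67, at 12.4 FPKM, but its division sum of 69.1 FPKM was below them. Tyms, which makes thymidylate, had 226, 4.18, 5.96 and 1.37 FPKM in LCM_GFP, against 33.2, 27.8 and 30.5 FPKM in FACS_GFP and 23.1, 30.9 and 22.2 FPKM in FACS_WT. Pcna, the replication clamp, had 64.7, 17.4, 17.9 and 7.83 FPKM in LCM_GFP, against 40.4, 33.6 and 39.8 FPKM in FACS_GFP and 37.8, 40.4 and 49.5 FPKM in FACS_WT. Tyms and Pcna, high in library 1 alone, differed from Mki67 in library 3.

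Nasp, which carries H3 and H4 before their deposition, had 288, 10.58, 105.2 and 20.0 FPKM in LCM_GFP, against 33.6, 29.4 and 31.2 FPKM in FACS_GFP and 38.2, 34.2 and 38.5 FPKM in FACS_WT, again with libraries 1 and 3 high. Over the 4 context lists that matched genes, limma called 5 genes against FACS_GFP and 6 against FACS_WT. The count against FACS_GFP was 13 without LCM_GFP replicate 1, 10 without replicate 2 and 1 without FACS_GFP replicate 1, 2 or 3. Calls over all genes were 4305 in the main fit, 5434 without LCM_GFP replicate 1 and 4651 without replicate 2. They fell to between 1042 and 1087 without 1 FACS_GFP library. Against FACS_WT the context count was 13 without LCM_GFP replicate 1, 1 without FACS_WT replicate 1, 2 or 3, and 1 with sex as a covariate. Calls over all genes there were 4207 in the main fit and 5257 without LCM_GFP replicate 1. They fell to between 1089 and 1160 without 1 FACS_WT library and to 1760 with sex as a covariate. Of the genes called, H3f3b alone was called under all 16 alternatives of each comparison. Against FACS_GFP, H2afx and Xrn2 were called under 11 of the 16, and Eri1 and H2afj under 10. Against FACS_WT, H2afx and Xrn2 were called under 10 of the 16, H2afj and Snrpb under 9, and Eri1 under 7. In FACS_GFP minus FACS_WT, limma called 0 of the 57 genes of these lists that were tested, Napa aside, among them 0 of 20 division genes (4 at an unadjusted p under 0.05) and 0 of 11 chaperones (1 unadjusted). A list of 9 non-polyadenylated nuclear RNAs matched 0 rows and is not analysed here.

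Libraries 1 and 3 also held transcripts of embryonic red cells. Hba-x, an embryonic alpha globin, had 1853, 2.16, 660.5 and 0.225 FPKM in LCM_GFP, against 0 in all FACS_GFP and FACS_WT libraries. Hbb-y had 902, 0.102, 439 and 0.0666 FPKM in LCM_GFP and was listed at 0 in all sorted libraries. The 11 genes of that list summed to 3663, 40.9, 1819 and 0.449 FPKM in LCM_GFP, against 4.40 to 6.88 FPKM in FACS_GFP and 3.22 to 4.78 FPKM in FACS_WT. Library 2 thus held far less than libraries 1 and 3 but was also above every sorted library, and library 4 was below them. The mice were 6 weeks old by the labels, and the part of these transcripts in the histone values of libraries 1 and 3 was not tested.

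**Figure D5:**
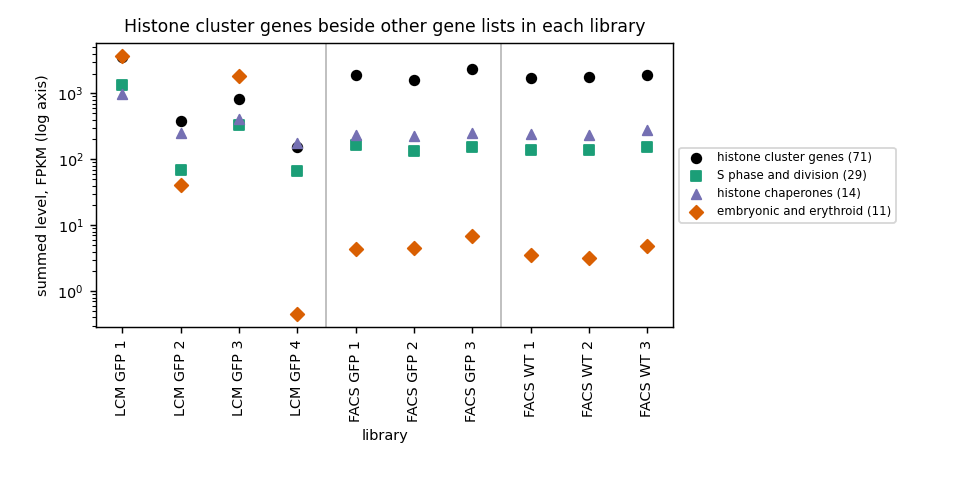
Summed FPKM per library (log axis) of the histone cluster genes, the S phase and division genes, the histone chaperones (without Napa) and the embryonic and erythroid genes; numbers of genes are in the legend. In LCM_GFP libraries 1 and 3 the embryonic and erythroid sum is 3663 and 1819 FPKM, and the division sum is highest there too.

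Markers of other brain cells moved with the isolation. The 20 microglia genes summed to 2795 to 6485 FPKM in LCM_GFP, against 9751 to 12007 FPKM in FACS_GFP and 11373 to 14604 FPKM in FACS_WT, and 14 of 20 were lower than FACS_GFP by limma; Csf1r, the CSF1 receptor that microglia depend on, was present in every library, at 239 to 657 FPKM in LCM_GFP. The 15 oligodendrocyte genes summed to 3087 to 8479 FPKM in LCM_GFP, against 22.4 to 26.8 FPKM in FACS_GFP and 25.1 to 33.8 FPKM in FACS_WT, with 15 higher than FACS_GFP by limma. The 15 neuron genes summed to 1368 to 2576 FPKM in LCM_GFP, against 16.6 to 24.8 FPKM in FACS_GFP and 15.3 to 17.5 FPKM in FACS_WT, with 14 higher. The 12 astrocyte genes summed to 695 to 1371 FPKM in LCM_GFP, against 31.1 to 34.3 FPKM in FACS_GFP and 23.4 to 26.9 FPKM in FACS_WT, with 10 higher, and 8 of 12 endothelial genes were higher. Of the 12 blood leukocyte genes, 10 were at 0 in all LCM_GFP libraries and 1, Cd79b, was lower. Beside these counts, 12.5% of all genes tested were higher and 19.6% lower than FACS_GFP by limma. Between the sorted groups, 4 of 15 oligodendrocyte and 4 of 15 neuron genes passed the level filter. For astrocyte and endothelial genes it was 3 of 12 each. Against FACS_GFP most of the others passed it mainly through the LCM_GFP libraries, where they are high. The filter thus largely set their direction, and their counts only describe the libraries. The part of these cells in the histone values was not tested.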

How the data were processed

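RNA-seq values of 10 libraries were analysed. The submitters' processing notes name CASAVA 1.8.2, TopHat2 2.0.4, Bowtie2 2.0.0, Cufflinks 2.0.2 and the genome build mm9, without the role of each. The values are normalized expression values of Cufflinks, per the file headers. The deposited FPKM are per gene and library. The authors' deposited comparison table gives q-values and log2 fold changes (as deposited, second group over the first). No whole reads could be recovered: of the low values of single-exon genes, 48.1% to 53.3% came within 0.2 of whole multiples of the best step found, and evenly spread values would give 40%, so the depth per sample is unknown. 

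From FPKM, log2(FPKM + 1) was computed, and limma 3.58.1 (R 4.3.3, moderated by trend and robust, two-sided) was fitted over all genes that reached 1 FPKM in 3 or more compared libraries; p-values were adjusted over all of them by Benjamini-Hochberg. The fold changes understate those of low genes. Groups came from the titles. Members were named by rule: the 4 highest of each class by mean of the 3 group means, all H1 genes, and the 3 largest differences in each direction of each comparison. Up to 4 genes of each list were named by level. The members and lists were chosen with earlier results of these data known. On data simulated with the levels and spread of the sorted libraries, the fit recovered most of the large changes put in. The simulation did not cover the wider spread of LCM_GFP or small differences, so it says nothing of the calls there. Alternatives covered the pseudocount, the filter, scaling, a replicate block, sex, leaving out each library, and LCM_GFP libraries 2 and 4 only. Sequences were read from GENCODE M21 and RefSeq and none of their coordinates were joined to mm9. The microglia, oligodendrocyte, neuron, astrocyte, endothelial, erythroid and leukocyte lists served only to describe the libraries.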

Additional observations from a re-analysis of the deposited data

Results flagged for a closer look

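A screen of 32 values over the 4 LCM_GFP libraries, on raw FPKM, marked 14 in which 1 library lay far from the other 3 by Dixon's ratio. For a single value drawn from a normal distribution chance marks about 1 in 20, but that rate cannot be applied here: FPKM are skewed, the genes share the same 4 libraries, and they were named by their level or difference. The count is therefore a description and no test. In 13 of the 14 it was library 1. The summed FPKM of library 1 was 253 for H2A, 1510.6 for H2B and 107 for H3. By gene, library 1 had 5.42 FPKM for Hist1h1d, 75.4 for Hist1h2ak, 4.54 for Hist1h2an and 119 for Hist2h2ac. It had 388 FPKM for Hist1h2bf, 382 for Hist1h2bl and 28.3 for Hist1h3e. Among H4 genes it had 57.9 FPKM for Hist1h4c, 40.5 for Hist1h4h and 44.5 for Hist2h4. In Hist1h3d it was library 4, at 2.39 FPKM.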

How the results depend on the processing

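The median difference of the members stayed below 0 under every alternative run, from −1.98 to −0.37 in LCM_GFP minus FACS_GFP and from −1.96 to −0.34 in LCM_GFP minus FACS_WT. The ends of both ranges came from pseudocounts of 0.1 and 5, which change the scale for every gene. Against FACS_GFP, filtered genes then had medians of −0.82 and −0.31, and all genes with a value −0.24 and −0.004. Against FACS_WT these were −0.81 and −0.30, and −0.26 and −0.005. The count of members lower with no overlap was 21 to 49 against FACS_GFP and 23 to 46 against FACS_WT when 1 library was left out. With LCM_GFP libraries 2 and 4 only it was 58 and 57. After median ratio scaling it fell to 17 against each sorted group, beside 3804 of 23201 and 3767 of 23076 genes. After quantile normalization it was 16 against each, beside 4739 and 4656 genes. Genes called over the context lists numbered 5 against FACS_GFP, 3 with a filter at 5 FPKM, 2 after median ratio scaling, 21 with libraries 2 and 4 only and 1 to 13 leaving out 1 library. Over all genes the calls were 4305 of 13403 in the main fit, 3150 of 9813 with the filter at 5 FPKM and 3129 of 13298 after median ratio scaling. They were 4985 of 11547 with libraries 2 and 4 only, and 1042 to 5434 genes leaving out 1 library. The context genes called numbered 6 against FACS_WT, 2 after median ratio scaling, 1 with sex as a covariate, 21 with libraries 2 and 4 only and 1 to 13 leaving out 1 library. Over all genes the calls there were 4207 of 13415 in the main fit, 3093 of 13302 after median ratio scaling and 1760 of 13415 with sex. They were 4686 of 11586 with libraries 2 and 4 only, and 1089 to 5257 genes leaving out 1 library. Over the 11 single calls behind these counts, only both of H3f3b held under all 16 alternatives, and no sign turned. The cause of these shifts was not tested. In FACS_GFP minus FACS_WT, 0 members were called under every alternative, and the 13 genes called over all became 7 without a filter and 4 to 15 leaving out 1 library. Replicate numbers were not treated as pairs in the main fits. Deviations of FACS_GFP and FACS_WT libraries with the same number correlated at 0.141, 0.0102 and 0.214. Those with different numbers correlated at −0.224 to 0.0885, so whether the sorted libraries are paired is not settled. Deviations of LCM_GFP and sorted libraries with the same number correlated at −0.0401 to 0.00635. With a replicate block, where LCM_GFP library 4 has no partner, the context count was 3 against FACS_GFP, beside 3370 of 13403 genes. It was 4 against FACS_WT, beside 3334 of 13415 genes, and FACS_GFP minus FACS_WT called 19 genes and 0 members. Where a gap between groups of 3 and 4 libraries is small, the depth of these files, which is unknown, leaves it unresolved.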
